A study of Mus musculus with 8 samples.

Results

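The 6 genes described here are a set of Nodal signalling genes expressed in mouse embryonic stem (ES) cells, measured in ES cells with less or more Zscan4: the ligands Nodal and Gdf3, the co-receptor Tdgf1 (Cripto), the secreted inhibitors Lefty1 and Lefty2, and the intracellular inhibitor Smad7. They were chosen by symbol, with earlier results of these data known. All 6 were found in both deposited gene tables, among 17938 genes of the knockdown table and 18292 of the overexpression table. mRNA of J1 cells, an ES cell line of a male mouse embryo, was sequenced in 8 libraries, 2 in each of 4 groups. KD Zscan4 cells were transfected with a pSuper puro vector carrying a short hairpin RNA against Zscan4, and KD control cells with a random control, and both were kept in puromycin. OE Zscan4 cells received pCMV-tag2 with the coding region of Zscan4c. OE control cells are labelled as the control of that arm and as wild type, and both were kept in G418. In every group 1000 ng of plasmid was used, selection began after 24 h and lasted 7 days at 2 µg/ml puromycin or 10 days at 500 µg/ml G418, and the medium held 15% serum and 10 ng/ml LIF. Monoclonal cells were then picked, and the labels do not say how many clones a group holds, so a property of a clone and an effect of Zscan4 cannot be told apart.

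Nodal is a secreted ligand of the TGF-beta family. It binds activin receptors together with the co-receptor Tdgf1, and the receptors phosphorylate Smad2 and Smad3, which enter the nucleus with Smad4 and act with partners such as Foxh1. Lefty1 and Lefty2 are secreted proteins that block Nodal and its co-receptor, and both are themselves known Nodal targets in the embryo, which makes the pathway a feedback loop. Smad7 blocks the receptors from inside the cell. Zscan4 is a family of near-identical zinc finger genes expressed in 2-cell embryos and in a small, changing part of ES cell cultures.

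Each library held 17392177 to 22381633 reads in its gene table. Zscan4c had 11.2 and 15.5 normalised reads in KD Zscan4, against 575 and 566 in KD control. It had 1074 and 981 in OE Zscan4, against 60.1 and 75.2 in OE control, so the groups differed in the direction of their labels in both arms. Reads of the Zscan4 copies and of the plasmid insert may be shared between family members. The pluripotency markers that define ES cells were present in all 4 groups, with summed levels of 133522 to 139331 normalised reads in KD Zscan4 and 135802 to 136496 in KD control, and of 157578 to 158763 in OE Zscan4 and 115916 to 119373 in OE control. The 8 markers summed include Tdgf1, which is itself among the genes described here.

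The Lefty genes lie next to each other on chromosome 1 of the mm10 (GRCm38) genome, on the plus strand. Lefty2 is at chr1:180893108-180899103 and Lefty1 at chr1:180935022-180938400, with 35.9 kb between them. Both are protein-coding genes with 1104 coding bases, of which 1014 (91.8%) are identical in position. Because reads from identical stretches cannot be assigned to one gene, the most alike and the least alike 60 base stretches of the coding sequences are shown, from the GENCODE M21 annotation of that genome. Coding bases 272 to 331 are the same in both genes.
Lefty1: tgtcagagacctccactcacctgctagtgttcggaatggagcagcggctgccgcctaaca
Lefty2: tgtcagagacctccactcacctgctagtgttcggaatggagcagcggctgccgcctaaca
Coding bases 34 to 93 differ at 18 of 60 positions, shown as capitals.
Lefty1: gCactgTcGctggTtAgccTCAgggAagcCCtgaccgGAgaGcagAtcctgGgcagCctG
Lefty2: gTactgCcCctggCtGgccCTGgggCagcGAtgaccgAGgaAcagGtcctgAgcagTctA
Over the whole transcripts, 17.9% of the 50 base windows of Lefty1 also occur in Lefty2, and 4.80% of its 100 base windows. How the authors' counting treated such reads is not given in the sources used here, so the level of either Lefty gene may hold some reads of the other.

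The other members are on different chromosomes. Nodal is at chr10:61417972-61425338 (plus strand), Gdf3 at chr6:122605403-122610087 (minus strand), Tdgf1 at chr9:110939603-110946158 (minus strand) and Smad7 at chr18:75367529-75395935 (plus strand). None of the 6 genes overlaps another annotated gene, and counts are over the whole gene, so exons are not separated. Tdgf1 has a processed pseudogene, Tdgf1-ps1, with means of 360 normalised reads in the knockdown table and 428 in the overexpression table, and reads of Tdgf1 may be split with such copies.

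In the knockdown, 5 of the 6 genes fell and none rose at an adjusted p under 0.05, and in the overexpression 4 rose and none fell. Without KD control library 2 the knockdown count was 3. Among all genes tested, 18.5% fell and 17.2% rose in the knockdown, and 22.3% rose and 22.1% fell in the overexpression. The 6 genes were chosen with earlier results of these data known, so their counts are not a test against these shares. The median log2 fold change of the 6 genes was -0.36 in the knockdown, where that of all genes was 0.0078, and 0.75 in the overexpression, where that of all genes was -0.0022. Fold changes are the Zscan4 group minus its control on the log2(value + 1) scale, with limma's moderated test and Benjamini-Hochberg adjustment over all genes of a table. Nodal, Gdf3 and Lefty1 fell in the knockdown and rose in the overexpression. Of the 17409 genes in both tables, 6.65% did so.

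**Figure D1:**
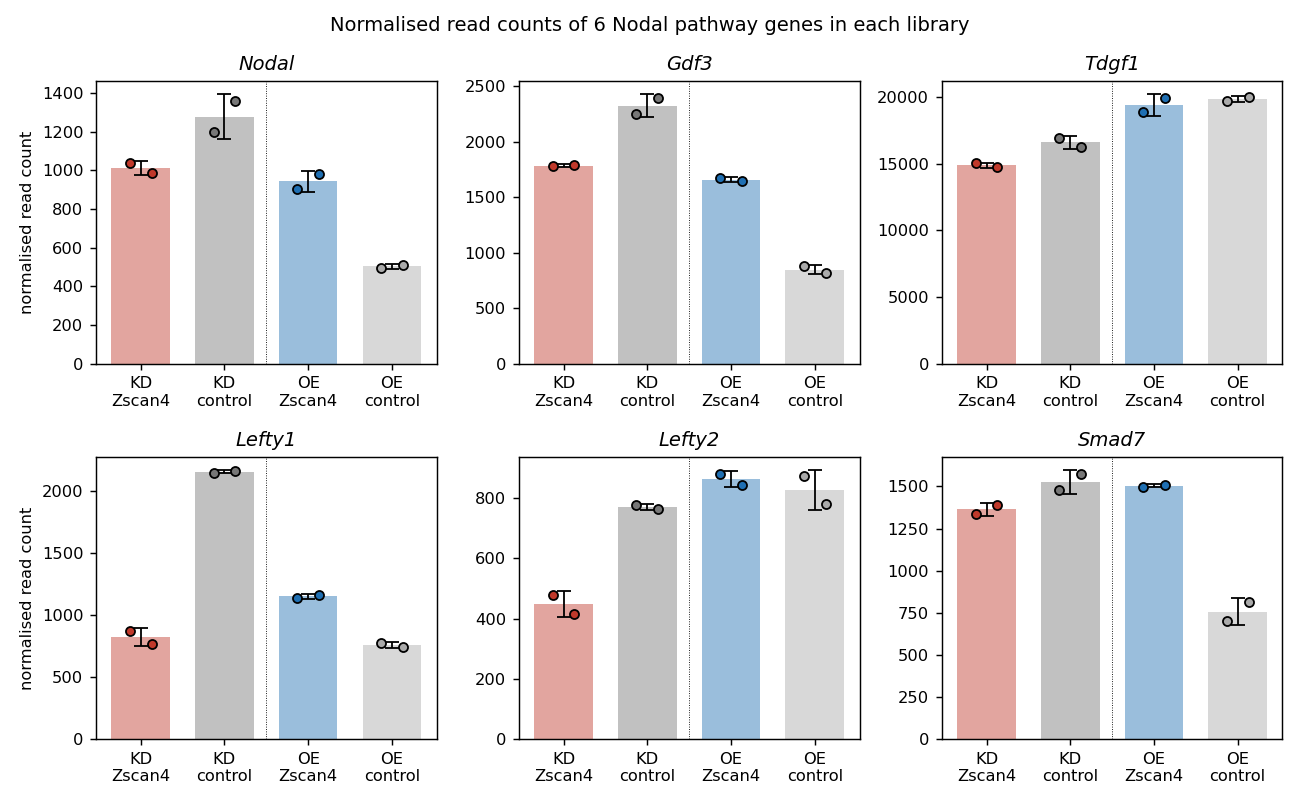
Normalised read counts (y axis, linear, from 0) of each gene in the 4 groups, where points are libraries, bars are means and error bars are SD (n = 2). In the knockdown arm each KD Zscan4 library of every gene lies under both KD control libraries, while Lefty2 and Tdgf1 overlap between OE Zscan4 and OE control.

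Nodal, the ligand that gives the pathway its name, fell in the knockdown and rose in the overexpression. It had 1037 and 984 normalised reads in KD Zscan4, against 1196 and 1358 in KD control. Both KD Zscan4 libraries lay under both control libraries, although the control libraries were themselves apart. The log2 fold change was -0.33 (SE 0.07, limma adjusted p = 0.0038). Without KD control library 2 it was -0.24 and did not pass (adjusted p = 0.0572, range over the alternatives 5.42e-05 to 0.0572). With overexpression, Nodal had 903 and 982 normalised reads in OE Zscan4, against 495 and 511 in OE control. The groups were far apart, and the change was 1.87-fold (95% interval 1.65 to 2.11), which is 0.90 on the log2 scale (SE 0.08, limma adjusted p = 2e-07).

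Gdf3, a second ligand of the family that signals through the same receptors with Tdgf1, followed Nodal in both arms. It had 1778 and 1795 normalised reads in KD Zscan4, against 2252 and 2397 in KD control, and the 2 groups did not overlap. The log2 fold change was -0.38 (SE 0.06, limma adjusted p = 0.00029). In OE Zscan4 it had 1676 and 1645 normalised reads, against 876 and 822 in OE control. The groups were again apart, with a change of 0.97 on the log2 scale (SE 0.07, limma adjusted p = 1.9e-08). The level of Gdf3 per length was 1.48 and 1.58 times that of Nodal in KD Zscan4 and 1.63 and 1.53 times in KD control. It was 1.61 and 1.45 times in OE Zscan4 and 1.53 and 1.39 times in OE control. This ratio overlapped between the groups in both arms, while the levels of both genes did not.

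Tdgf1, the co-receptor through which Nodal and Gdf3 reach the activin receptors, was by far the most abundant of the 6 and had the estimated changes closest to 0. Its interval overlapped that of Smad7, among others, in the knockdown and that of Lefty2 in the overexpression. Tdgf1 had 15027 and 14770 normalised reads in KD Zscan4, against 16965 and 16248 in KD control. The groups did not overlap, and the fall of 0.16 on the log2 scale passed (log2 fold change -0.16, SE 0.05, limma adjusted p = 0.024). It did not pass without KD control library 1 (-0.13, adjusted p = 0.278) or without KD control library 2 (-0.19, adjusted p = 0.107), over a range of 0.00366 to 0.278 among the alternatives. In the overexpression arm the libraries overlapped, with 18856 and 19971 normalised reads in OE Zscan4 and 19681 and 19998 in OE control. The log2 fold change was -0.03 (95% interval -0.18 to 0.12, limma adjusted p = 0.745). Scaling by library totals, an alternative chosen after the data were seen, gave -0.17, which passed (adjusted p = 0.0248, range over the alternatives 0.0248 to 0.965).

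That other scaling also lowered the median log2 fold change of all genes in the overexpression arm to -0.14. It gave 2531 genes that rose and 5389 that fell, against 4072 and 4039 on the deposited scale. Under it Nodal (0.76), Lefty1 (0.46), Gdf3 (0.83) and Smad7 (0.85) still rose on the log2 scale. In the knockdown arm it moved the median of all genes to -0.00052 and left the 5 calls in place.

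Promoters of 2 of the 6 genes, Nodal and Tdgf1, are in the RefSeq table used here (GRCm38.p6). They are shown because these genes differed in response, Nodal having risen in OE Zscan4 where the Tdgf1 groups overlapped on the deposited scale. Each runs from 250 bases before to 50 after the annotated start, 5′ to 3′ on the gene's strand. Capitals mark matches, on either strand, to the Smad-binding letters CAGAC, to the Foxh1 letters AATCCACA or AATACACA, or to the KLF-type letters GGGCGTGG.
Nodal: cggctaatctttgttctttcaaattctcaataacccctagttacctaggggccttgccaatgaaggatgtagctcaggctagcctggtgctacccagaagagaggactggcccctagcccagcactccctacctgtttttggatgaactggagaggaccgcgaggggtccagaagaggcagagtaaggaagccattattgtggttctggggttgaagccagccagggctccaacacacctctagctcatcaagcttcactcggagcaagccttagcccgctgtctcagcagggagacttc
Tdgf1: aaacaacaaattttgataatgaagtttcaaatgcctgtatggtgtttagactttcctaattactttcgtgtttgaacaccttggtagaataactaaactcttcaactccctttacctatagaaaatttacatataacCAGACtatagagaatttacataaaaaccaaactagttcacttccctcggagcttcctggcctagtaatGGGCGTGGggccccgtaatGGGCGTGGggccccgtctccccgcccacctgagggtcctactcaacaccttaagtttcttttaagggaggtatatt
The Nodal window (chr10:61417722-61418021) held no match. The Tdgf1 window (chr9:110946109-110946408) held 1 CAGAC and 2 GGGCGTGG, which do not overlap. Of 32851 mouse promoters of this length, 49.6% hold CAGAC, 1.82% hold either Foxh1 sequence and 5.33% hold GGGCGTGG.

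Lefty1, the inhibitor that binds Nodal and its co-receptor, was the gene with the largest fall. It had 873 and 771 normalised reads in KD Zscan4, against 2141 and 2160 in KD control. Both KD Zscan4 libraries lay far below both control libraries. The change was 0.382-fold (95% interval 0.344 to 0.424), which is -1.39 on the log2 scale (SE 0.07, limma adjusted p = 5.5e-08). In OE Zscan4 it had 1135 and 1164 normalised reads, against 773 and 744 in OE control. The groups did not overlap, and the log2 fold change was 0.60 (SE 0.08, limma adjusted p = 6.8e-06).

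Lefty2, the neighbouring inhibitor with the same binding partners, fell in the knockdown and did not pass in the overexpression. It had 479 and 417 normalised reads in KD Zscan4, against 776 and 763 in KD control. Neither KD Zscan4 library reached the controls, and the log2 fold change was -0.78 (SE 0.08, limma adjusted p = 2.3e-05). With overexpression it had 881 and 844 normalised reads in OE Zscan4 and 873 and 781 in OE control. These overlapped, with a log2 fold change of 0.06 (95% interval -0.11 to 0.24, limma adjusted p = 0.575), whose sign turned to -0.08 with scaling by library totals and to -0.02 without OE control library 2.

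Because the genes differ in how far they moved, the mRNA ratios of Lefty1 to Lefty2 and of Nodal to Lefty1 differed too. The level of Lefty1 per length was 2.71 and 2.74 times that of Lefty2 in KD Zscan4, against 4.10 and 4.21 times in KD control. It was 1.91 and 2.05 times in OE Zscan4, against 1.31 and 1.41 times in OE control. The level of Nodal per length was 0.997 and 1.07 times that of Lefty1 in KD Zscan4, against 0.469 and 0.528 times in KD control. It was 0.667 and 0.708 times in OE Zscan4, against 0.537 and 0.576 times in OE control. The groups did not overlap in any of these 4 comparisons, but with 2 libraries against 2 the smallest p that a two-sided exact permutation test can give is 0.333, which is the value each of them had.

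Smad7, the intracellular inhibitor, rose in the overexpression and did not pass in the knockdown. It had 1337 and 1390 normalised reads in KD Zscan4, against 1477 and 1576 in KD control. The KD Zscan4 libraries were the lower ones, yet the log2 fold change of -0.16 did not pass (95% interval -0.30 to -0.03, limma adjusted p = 0.0594). It passed without KD Zscan4 library 2 (-0.19, adjusted p = 0.0423, range over the alternatives 0.0423 to 0.361). With overexpression it had 1498 and 1511 normalised reads in OE Zscan4, against 700 and 816 in OE control. The groups were far apart, and the rise was 0.99 on the log2 scale (SE 0.08, limma adjusted p = 5.2e-08), with an interval that overlapped that of Gdf3.

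**Figure D2:**
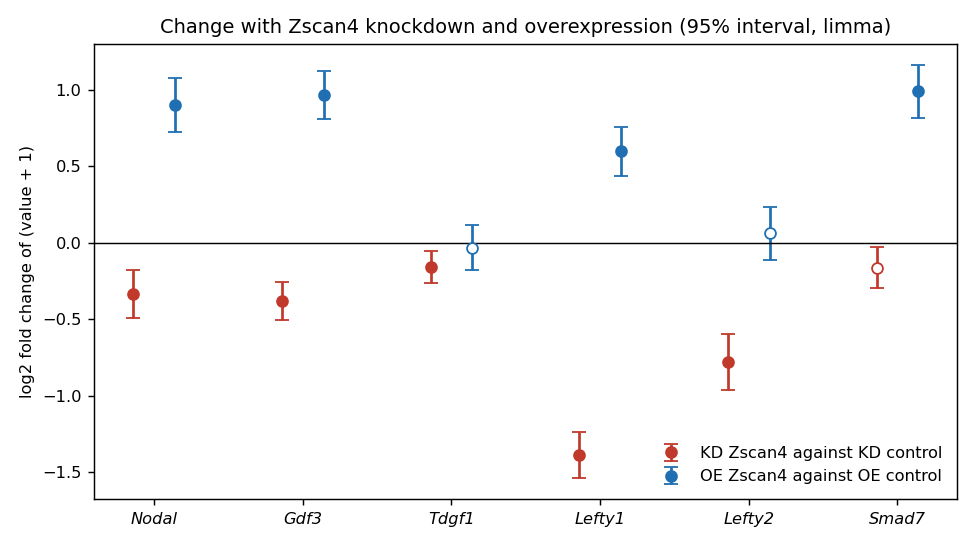
Log2 fold change (y axis, log2 of value + 1) of each gene in the knockdown (red) and overexpression (blue) arm, with limma's 95% interval as error bars and open circles where the adjusted p was not under 0.05. Lefty1 has the largest fall (-1.39), the rises of Nodal (0.90), Gdf3 (0.97) and Smad7 (0.99) overlap in their intervals, and the estimated changes of Tdgf1 are the closest to 0. The interval of Tdgf1 overlaps that of Smad7, among others, in the knockdown and that of Lefty2 in the overexpression.

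Whether the libraries of a group overlap gives a count that needs no model. In the knockdown all 6 genes were lower in both KD Zscan4 libraries than in either KD control library, where 33.8% of all genes were. In the overexpression 4 of the 6 were higher in both OE Zscan4 libraries, where 35.7% of all genes were. These counts, too, are of genes chosen with earlier results known and are no test against those shares. The difference between the overexpression and the knockdown effect was tested as a contrast over the 17409 shared genes, of which 44.7% passed in either direction and 22.9% with a higher value in the overexpression. It passed for 5 of the 6 genes, all with a higher value in the overexpression. The difference was 1.99 for Lefty1 (SE 0.10, limma adjusted p = 2.8e-10), 1.35 for Gdf3 (adjusted p = 7.6e-09), 1.24 for Nodal (adjusted p = 2.4e-07), 1.15 for Smad7 (adjusted p = 3.1e-07) and 0.84 for Lefty2 (adjusted p = 2.8e-05) on the log2 scale. For Tdgf1 it was 0.12 (95% interval -0.04 to 0.29, adjusted p = 0.207). The arms differ in plasmid, drug and days of selection, so these cannot be told apart from the direction in which Zscan4 was changed.

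Levels of different genes were compared in RPKM, reads scaled to exon length and library total. Tdgf1 led in every group, with mean levels of 289.5 RPKM in KD Zscan4, 324.6 in KD control, 354.6 in OE Zscan4 and 399.5 in OE control. Below it the order differed between groups. In KD Zscan4, Gdf3 (37.6) was followed by Nodal (24.6) and Lefty1 (23.8), which overlapped, and then by Smad7 (15.4) and Lefty2 (8.74). In KD control, Lefty1 (62.7) stood second, above Gdf3 (49.2), Nodal (31.2), Smad7 (17.3) and Lefty2 (15.1), with no overlap between neighbours. In OE Zscan4 the order was Gdf3 (32.8), Lefty1 (31.3), Nodal (21.5), Smad7 (15.9) and Lefty2 (15.8), where the last pair overlapped. In OE control it was Lefty1 (22.8), Gdf3 (18.5), Lefty2 (16.7), Nodal (12.7) and Smad7 (8.87), again without overlap. Lefty2 thus ranked last in every group but OE control, where it was at rank 4.

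The 2 control groups were not alike in these genes. Levels across the tables were set in RPM, reads scaled to the library total, without a test, since each table was normalised on its own. Nodal had means of 51.5 RPM in KD Zscan4, 65.4 in KD control, 45.1 in OE Zscan4 and 26.6 in OE control. Relative to OE control, KD control held 2.46 times as much Nodal, 2.75 times as much Lefty1, 2.66 times as much Gdf3 and 1.95 times as much Smad7, but 0.904 times as much Lefty2 and 0.812 times as much Tdgf1. KD control was thus the highest of the 4 groups for Nodal, Lefty1, Gdf3 and Smad7, and OE control the lowest for these genes, although Lefty1 libraries of KD Zscan4 (mean 41.8) and OE control (mean 40.0) overlapped. For Zscan4c the order was different, with 0.681 RPM in KD Zscan4, 29.2 in KD control, 49.2 in OE Zscan4 and 3.58 in OE control.

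The Lefty genes fell in the knockdown on a chromosome most of whose genes had positive fold changes. The 703 measured protein-coding genes of chromosome 1 with a mean of at least 20 had a median log2 fold change of 0.56 in the knockdown, with 91.0% above 0, while every other autosome had a median between -0.07 and 0.02. Lefty1 had a lower value than 697 of these genes and a higher one than 5, and Lefty2 a lower value than 688 and a higher one than 14. Centred on the median of the chromosome, the log2 fold change of Lefty1 was -1.95 and that of Lefty2 was -1.34. Whether the shift of the chromosome belongs to a clone or to the knockdown cannot be told apart. In the overexpression chromosome 11 had the autosomal median farthest from 0, at -0.34. The 5 measured genes of chromosome Y had medians of -2.20 in the knockdown and -6.02 in the overexpression, with none above 0 in either arm, and whether this belongs to a clone or to Zscan4 cannot be told apart. None of the 6 genes lies on chromosome 11 or Y. In the same arm Smad7 had a higher value than 312 of 317 genes of its chromosome, Nodal than 608 of 624 and Gdf3 than 556 of 573.

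**Figure D3:**
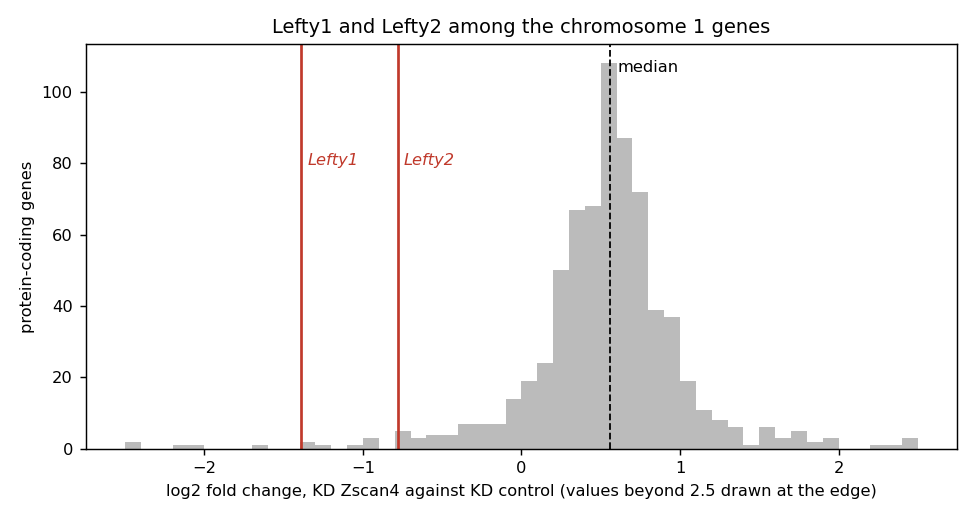
Distribution of the log2 fold change in the knockdown arm (x axis) over the 703 protein-coding genes of chromosome 1 (y axis, genes per bin), with the median as a dashed line and Lefty1 and Lefty2 as red lines. The bulk of the genes lies around the median of 0.56, and Lefty1 (-1.39) and Lefty2 (-0.78) lie in the lower tail.

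The rest of the pathway was read from lists of ligands, receptors, secreted inhibitors, convertases, transducers, intracellular inhibitors and known embryonic targets, without the 6 genes above. Of 54 listed genes, 50 were measured in the knockdown, where 3 rose, 16 fell and 31 did not pass, with a median log2 fold change of -0.18. In the overexpression 47 were measured, of which 6 rose, 6 fell and 35 did not pass, with a median of -0.03. Across all genes 35.7% passed in either direction in the knockdown and 44.3% in the overexpression.

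Of the other ligands, 1 of 8 measured rose and 1 fell in the knockdown, and 1 of 7 rose and 1 fell in the overexpression. Those that fell were Gdf1 in the knockdown (-0.79, limma adjusted p = 0.0017) and Tgfb1 in the overexpression (-0.48, adjusted p = 0.0076). Tgfb1 did not pass without OE control library 1 (-0.29, adjusted p = 0.0967) or without OE Zscan4 library 1 (-0.40, adjusted p = 0.0728, range over the alternatives 1.62e-05 to 0.0967). Inhbb, which encodes a subunit of activin B, rose in both arms. It had 2975 and 2929 normalised reads in KD Zscan4, against 1610 and 1559 in KD control (log2 fold change 0.90, limma adjusted p = 2.4e-07). Inhbb lies on chromosome 1, and centred on the median of that chromosome its change was 0.34. It had 3292 and 3020 in OE Zscan4, against 1525 and 1632 in OE control (log2 fold change 1.00, adjusted p = 8.6e-09). Nodal, by contrast, moved in opposite directions in these arms. None of the 6 measured receptors passed in either arm on the deposited scale with all libraries. Acvr1b, the type I receptor of Nodal, had log2 fold changes of 0.18 in the knockdown (adjusted p = 0.0653) and -0.10 in the overexpression (adjusted p = 0.3). It passed in the knockdown without KD Zscan4 library 1 (0.24, adjusted p = 0.0214) and with chromosome centring (0.24, adjusted p = 0.0164), over a range of 0.0164 to 0.309 among the alternatives. In the overexpression it passed with scaling by library totals (-0.24, adjusted p = 0.0218, range 0.0218 to 0.69). For Acvr1b, alone among the 6 receptors, the difference between the overexpression and the knockdown effect passed (-0.28, limma adjusted p = 0.03). Acvr2b, a type II receptor, had -0.10 (adjusted p = 0.506) and 0.22 (adjusted p = 0.255).

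Of the convertases, the protease family that cuts the Nodal precursor, 2 of 4 fell in the knockdown, and 2 of the 3 measured rose in the overexpression. Furin fell to 262 and 248 normalised reads in KD Zscan4, against 560 and 572 in KD control (log2 fold change -1.15, limma adjusted p = 1.5e-06). Pcsk6 (PACE4) fell in the knockdown (-0.39, adjusted p = 0.00078) and rose in the overexpression (0.33, adjusted p = 0.0067), where Furin did not pass (-0.08, adjusted p = 0.633). Pcsk7, a related protease, did not pass in the knockdown (0.05, adjusted p = 0.779) and rose in the overexpression (0.86, adjusted p = 2.5e-05). The rise of Pcsk6 did not pass with scaling by library totals (0.19, adjusted p = 0.122) or without OE Zscan4 library 1 (0.23, adjusted p = 0.153, range over the alternatives 0.0015 to 0.153). Among the secreted inhibitors, 2 of 5 fell in the knockdown, of which Fst did not pass with DESeq2 (-0.88, adjusted p = 0.202). In the overexpression 1 rose and 2 fell. Fstl3, which binds activins, was one of those that fell, with 29.8 and 13.2 normalised reads in OE Zscan4 against 62.9 and 49.4 in OE control (-1.44, adjusted p = 0.0022). Without OE Zscan4 library 2 its log2 fold change was -0.88. Fstl1, a related secreted protein, fell in the knockdown (-0.70, adjusted p = 5.3e-06) and rose in the overexpression (0.55, adjusted p = 3.1e-05).

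Of the transducers, Smad2 and Smad3, the direct receptor substrates, did not pass in either arm, with log2 fold changes from -0.17 to 0.13. Smad2 passed in the overexpression without OE control library 1 (0.24, adjusted p = 0.0192, range over the alternatives 0.0192 to 0.929). Smad4, their common partner, fell in the knockdown (-0.31, limma adjusted p = 0.0016) and did not pass in the overexpression (0.15, adjusted p = 0.111). Foxh1, the DNA-binding partner that brings Smad2 to Nodal targets, fell in both arms. It had 389 and 445 normalised reads in KD Zscan4, against 828 and 877 in KD control (-1.03, adjusted p = 2.6e-06). It had 285 and 262 in OE Zscan4, against 406 and 360 in OE control (-0.48, adjusted p = 0.0015). Of the 12 intracellular inhibitors other than Smad7, 2 rose and 3 fell in the knockdown, and 2 rose and 2 fell in the overexpression. Skil (SnoN), which represses Smad-driven transcription, fell in the knockdown (-0.57, adjusted p = 2.6e-05).

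Genes known as Nodal targets in the embryo fell in the knockdown in 5 of 9 measured cases, and in the overexpression 1 of 8 rose, namely Pmepa1 (0.35, limma adjusted p = 0.0063). Pmepa1 did not pass with scaling by library totals (0.21, adjusted p = 0.0907) or without OE Zscan4 library 2 (0.31, adjusted p = 0.0799, range over the alternatives 0.00364 to 0.0907). Of all genes, 18.5% fell in the knockdown and 22.3% rose in the overexpression. Sox17, an endoderm transcription factor, had 9.13 and 5.82 normalised reads in KD Zscan4, against 192.5 and 164.0 in KD control (-4.43, adjusted p = 3.1e-07). Foxa2, another endoderm factor, had 0 and 3.88 in KD Zscan4, against 44.8 and 31.4 in KD control. Its fitted log2 fold change of -4.12 passed (adjusted p = 0.00049) but depends on the pseudocount, being -2.68 with a pseudocount of 5, and was -2.98 without KD Zscan4 library 1. Cer1 was not analysed here. Sox17 and Foxa2 are also markers of primitive endoderm, so this list is not free of that cell type.

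**Figure D4:**
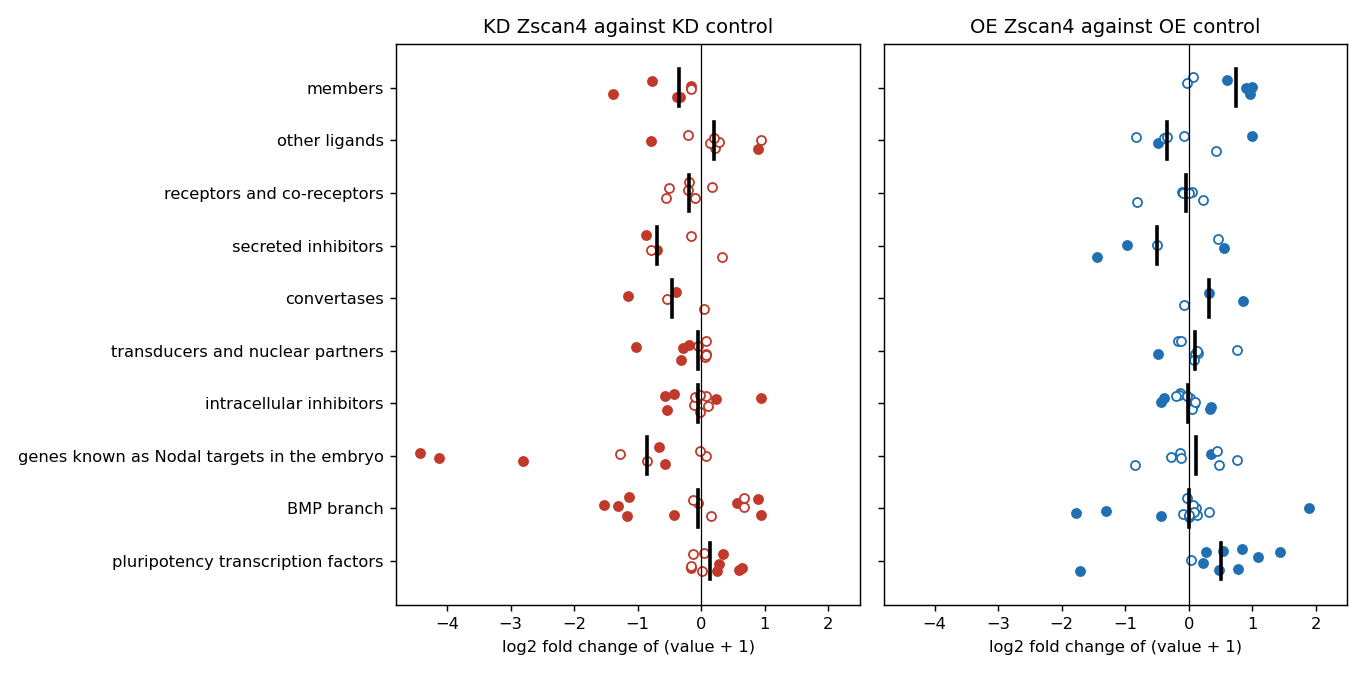
Log2 fold change (x axis, log2 of value + 1) of the genes of each list (rows) in the knockdown (left) and overexpression (right) arm. Each circle is a gene, filled where the adjusted p was under 0.05, and black bars are list medians, which are lowest for the embryonic targets in the knockdown (-0.86) and highest for the 6 members in the overexpression (0.75).

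The difference between the overexpression and the knockdown effect, tested as above, was also at least 1 on the log2 scale in either direction for a number of listed genes. It was positive for Sox17 (3.58, limma adjusted p = 1.1e-05), Furin (1.07, adjusted p = 3.3e-05), Fstl1 (1.25, adjusted p = 6.1e-08), Fst (1.32, adjusted p = 0.0461) and Klf4 (1.00, adjusted p = 1e-06). Fst was low, with means of 21.9 normalised reads in KD Zscan4 and 40.4 in KD control. Leaving out 1 library gave Fst log2 fold changes of -1.02 to -0.71 in the knockdown and 0.05 to 0.86 in the overexpression. In the BMP branch the difference was positive for Id3 (3.03), Id1 (1.62), Id2 (1.30) and Bmp4 (1.29) and negative for Smad6 (-1.37), Bmp7 (-1.88) and Smad9 (-2.46). It was negative for Dppa3 as well (-1.56), and the adjusted p-values of these 8 genes lay between 1.7e-09 and 0.0014. Smad9 was low in the knockdown arm, with means of 13.4 normalised reads in KD Zscan4 and 8.19 in KD control. Its change there did not pass (0.68, limma adjusted p = 0.256). Bmp7 rose in the knockdown (0.57, limma adjusted p = 0.0112) but did not pass with DESeq2 (0.58, adjusted p = 0.0738).

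The BMP branch, which shares Smad4 and the inhibitors with Nodal, had 3 genes that rose and 5 that fell of 13 in the knockdown, and 1 that rose and 3 that fell in the overexpression. Of all genes, 17.2% rose and 18.5% fell in the knockdown, and 22.3% rose and 22.1% fell in the overexpression. Id1, Id2 and Id3, known BMP targets in ES cells, and the ligand gene Bmp4 were among those that fell in the knockdown. Id1 had 821 and 781 normalised reads in KD Zscan4, against 2297 and 2349 in KD control (-1.54, limma adjusted p = 7.6e-09). Id2 changed by -1.30, Id3 by -1.14 and Bmp4 by -1.17 on the log2 scale, with adjusted p-values of 9e-07, 6.3e-07 and 9.8e-06. In the overexpression Id3 rose to 405 and 416 normalised reads in OE Zscan4, against 130 and 93.7 in OE control (1.89, adjusted p = 1.9e-08). Id1 (0.08), Id2 (0.0012) and Bmp4 (0.12) did not pass there, and their signs turned with the scaling. Bmp7 (-1.31, adjusted p = 1.9e-07) and Smad9 (-1.78, adjusted p = 0.00033) fell in the overexpression. Smad6, the BMP counterpart of Smad7, rose in the knockdown (0.94, adjusted p = 3.4e-05) and fell in the overexpression (-0.44, adjusted p = 0.0031), where Smad7 rose.

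Pluripotency transcription factors, which hold the ES cell state, were counted as well. Of 10, 5 rose and 1 fell in the knockdown, and 8 rose and 1 fell in the overexpression. The shares over all genes were 17.2% and 18.5% in the knockdown, and 22.3% and 22.1% in the overexpression. Klf4 was the gene that fell in the knockdown (-0.17, limma adjusted p = 0.0496). It did not pass there with DESeq2 (-0.16, adjusted p = 0.0923), among other alternatives. Nanog rose in the knockdown (0.35, limma adjusted p = 0.00014) and in the overexpression (0.48, adjusted p = 1.8e-05), as did Sox2 (0.24, adjusted p = 0.0018, and 0.22, adjusted p = 0.0108). Scaling by library totals took the overexpression call of Sox2 away (0.08, adjusted p = 0.261), and so did leaving out OE Zscan4 library 1 (0.21, adjusted p = 0.169) or library 2 (0.23, adjusted p = 0.125, range over the alternatives 0.00218 to 0.261). Pou5f1 (Oct4) did not pass in the knockdown (-0.13, adjusted p = 0.078) and rose in the overexpression (0.53, adjusted p = 1.3e-05). In the knockdown it passed without KD Zscan4 library 1 (-0.19, adjusted p = 0.000523) and with scaling by library totals (-0.14, adjusted p = 0.0275), over a range of 0.000523 to 0.352 among the alternatives. Otx2, a factor of the formative state, rose to 697.5 and 742 normalised reads in OE Zscan4, against 253 and 278 in OE control (1.44, adjusted p = 4.5e-09). Otx2 also rose in the knockdown (0.60, adjusted p = 6.2e-05). Zfp42 (Rex1) likewise rose in the knockdown (0.27, adjusted p = 0.00072) and in the overexpression (1.08, adjusted p = 2.7e-09). Dppa3, a gene of the naive state and germ line, did not pass in the knockdown (-0.15, adjusted p = 0.614). In the overexpression Dppa3 fell (-1.72, adjusted p = 2.2e-07).

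Markers of other cell types were summed and counted in the same fits. The 10 primitive endoderm markers all fell in the knockdown, with summed levels of 1821 to 2030 normalised reads in KD Zscan4 and 10298 to 10529 in KD control. In the overexpression 7 of the 9 measured fell, with sums of 1674 to 1716 in OE Zscan4 and 2521 to 2670 in OE control. The sum was thus lower in both Zscan4 groups, but by unlike amounts. These markers had a median log2 fold change of -3.21 after knockdown, against -0.76 for the 9 measured after overexpression. Sox7 had a positive value with overexpression that did not pass (1.02, limma adjusted p = 0.0581). The 2-cell-like markers, which include Zscan4c, fell in the knockdown in 8 of 8 cases, with sums of 85.2 to 120.4 in KD Zscan4 and 1964 to 2122 in KD control. In the overexpression 6 of the 7 measured rose, with sums of 3030 to 3333 in OE Zscan4 and 219 to 243 in OE control. Of 7 markers of mesoderm and primitive streak, 1 fell and 6 did not pass in each arm. They had sums of 133 to 150.5 in KD Zscan4 and 192 to 239 in KD control, and of 154 to 156 in OE Zscan4 and 176 to 203 in OE control. Of the 6 fibroblast markers measured in the knockdown, Pdgfra and Twist1 fell, Thy1 rose and 3 did not pass, and of 5 in the overexpression 3 fell and 2 did not pass. They had sums of 315 to 329 in KD Zscan4 and 613 to 647 in KD control, and of 303 to 305 in OE Zscan4 and 575 to 600 in OE control. The markers did not move together in the knockdown. Pdgfra had means of 17.4 in KD Zscan4 and 297 in KD control, and Twist1 of 16.4 and 125. Thy1 had means of 177 and 94.0, and Col1a1 and Col1a2 did not pass. No measured marker was at 0 in both libraries of a group, and Prrx1 in both tables and Foxa2, Zfp352 and Col3a1 in the overexpression table were not analysed here. The part of these cells in the changes of the 6 genes was not tested, and in bulk RNA fewer cells of a type and less RNA per cell cannot be told apart.

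The genes with the most similar pattern were sought for each of the 6 among 12162 genes, as the smallest Euclidean distance over the 8 libraries between log2 profiles centred within each table. For Nodal these were Aven (distance 0.166), Klhl9 (0.182) and Sssca1 (0.185), and Gdf3 came next at rank 4 (0.187). Smad7 came at rank 52 (0.268). For Gdf3 they were Sssca1 (0.113), Mymx (0.119) and Zfp296 (0.142), with Nodal at rank 15. For Lefty1 they were Crmp1 (0.195), F2rl1 (0.198) and Lgals3 (0.260), and Lefty2 came only at rank 202 (0.818). For Lefty2 they were Dtd1 (0.140), Ppm1n (0.143) and Fzd4 (0.165), with Lefty1 at rank 4286. For Tdgf1, whose profile was nearly flat, they were Zfand1 (0.0501), Ube2j1 (0.0509) and Ide (0.0547). For Smad7 they were Dpf1 (0.157), Srsf6 (0.167) and Zfp462 (0.168). Of the 6 genes, then, the ligands Nodal and Gdf3 were closest to each other by this measure. Lefty2 was likewise the closest of the 6 to Lefty1, although many genes outside the set were nearer. Seen from Lefty2, Tdgf1 (0.666) was nearer than Lefty1 (0.818).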

How the data were processed

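The authors deposited a gene table and a repeat table for each arm, and the repeat tables were not used here. Per the submitters' processing notes, the tools were cutadapt, HISAT2, featureCounts and DESeq2 on mm10, with versions, strand and multi-mapping settings not given in the sources used here. In the deposited tables each signal value is a whole read number over a library factor, since 100% of values times that factor came within 0.01 of a whole number. Gene IDs were named from GENCODE M21 (17913 of 17938 knockdown and 18259 of 18292 overexpression IDs matched).

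Libraries were grouped by their labels. Columns carry a number (1 or 2) that may not be the replicate number of the titles, so "library 1" is the column's number. The labels do not say that libraries of a group came from separate cultures, so the spread behind a p-value is that of these libraries alone and may be technical. Libraries of a group differed beyond counting error (chi-square per degree of freedom 2.94 to 4.96).

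limma 3.58.1 (R 4.3.3) with an intensity trend was fitted to log2(value + 1), 2 libraries against 2, two-sided, with Benjamini-Hochberg adjustment over all genes of a table and a threshold of 0.05. No further filter was applied. A log2 fold change on this scale understates the change of low genes. Alternatives were edgeR 4.0.16 and DESeq2 1.42.0 on the recovered reads, other scalings, pseudocounts, a minimum mean of 10, leaving out libraries, a replicate block and centring by chromosome. The procedure was tested on simulated data. The 6 genes and the lists were chosen with earlier results of these data known. Named are all 6 genes, listed pathway genes that passed with an absolute log2 change of at least 1, a short list of pathway genes whatever their result, and the 3 most similar genes per member (mean of at least 50). Inhbb, Gdf1, Tgfb1, Pcsk7, Pmepa1, the named markers and some values beside them were chosen after the data were seen. One listed gene that this rule names is counted in its list but not reported here.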

Additional observations from a re-analysis of the deposited data

How the results depend on the processing

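Depth does not limit the 6 genes, which had at least 430 reads in each library, but 2 libraries a group limit every test. Of 246 values of the 6 genes under alternatives, 238 kept their direction and their side of the threshold. Leaving out 1 library in turn, with the lone library assumed to vary like the others, gave knockdown log2 fold changes of -0.43 to -0.24 for Nodal, which lost its call without KD control library 2, of -0.19 to -0.13 for Tdgf1, which lost it without KD control library 1 or 2, and of -0.21 to -0.12 for Smad7, which gained one without KD Zscan4 library 2 (-0.19). The number of the 6 genes called in the knockdown then ranged from 3 (without KD control library 2) to 6. In the overexpression, Lefty2 ranged from -0.018 to 0.14 and Tdgf1 from -0.073 to 0.0095. Of other genes that did not pass, Dppa3 ranged from -0.35 to 0.040, Pcsk7 from -0.13 to 0.23 and Pmepa1 from -0.096 to 0.050 in the knockdown, and in the overexpression Gdf1 ranged from -0.16 to 0.015, Bmp4 ranged from -0.017 to 0.26, Furin from -0.25 to 0.10, Id1 from -0.00035 to 0.16 and Id2 from -0.069 to 0.072.

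Scaling by library totals, chosen after the data were seen, gave overexpression values of -0.077 for Lefty2, -0.17 for Tdgf1 (now past the threshold), -0.016 for Bmp4, -0.059 for Id1, -0.14 for Id2 and -0.013 for Smad2. Id2 was also below 0 with edgeR (-0.00987), TMM scaling (-0.0138) and chromosome centring (-0.00230), and Pmepa1 in the knockdown was 0.033 with chromosome centring. The cause was not tested. DESeq2 called 4141 genes in the knockdown, against 6403 in limma.

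The libraries share a number that was not taken to pair them. Deviations of libraries with the same number correlated at -0.059 in the knockdown and -0.039 in the overexpression. With 2 libraries a group, this correlation cannot show whether libraries were prepared in pairs. With a replicate block, 6924 genes were called in the knockdown, 8188 in the overexpression and 7388 for the difference, and no call of the 6 genes changed. Fstl3 in the knockdown (-0.78, limma adjusted p = 0.04) and Sox17 in the overexpression (-0.85, adjusted p = 0.0497) passed only with the block among these 2 fits.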
